A study of Glycine max and Zea mays with 6 samples.

Results

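The histone H3 marks described here were those lying in the middle of soybean chromosomes. The middle was defined by position alone, as the stretch between 35% and 65% of a chromosome, measured from 0 to the largest peak end found on it in any of the 3 lists. A peak or region belonged to it when its midpoint lay in that stretch, and chromosome Gm13 and the unplaced scaffolds were left out. On the remaining 19 chromosomes 11482 of 133707 peaks and regions were members, out of 144028 in the 3 complete lists. They were 3924 of the 47590 H3K4me3 peaks, 4790 of the 56109 H3K56ac peaks and 2768 of the 30008 H3K36me3 regions on these chromosomes. The middle held 275 Mb of sequence and the rest held 641 Mb.

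The samples were leaves of soybean (Glycine max, strain William82 as the labels spell it) from plants about 10 days old, with no treatment. They were raised at 25 °C in days of 16 h light followed by 8 h dark, and their 2nd and 3rd leaves were fixed with 1% formaldehyde for chromatin immunoprecipitation and sequencing (ChIP-seq). Each mark had 1 library, so no spread between replicates could be measured and no test between samples was possible. The input library of soybean was not analysed here, and the maize samples of the series were not used.

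Nucleosomes carry these modifications at different places along a plant gene. Trimethylation of lysine 4 (H3K4me3) is known from the 5′ end of transcribed genes, acetylation of lysine 56 (H3K56ac) is known from the same end of genes and from regulatory DNA, and trimethylation of lysine 36 (H3K36me3) is laid down over the body of genes during elongation. The chromosomes of soybean are known for gene-rich arms and a broad pericentromere that is poor in genes, rich in transposable elements and low in recombination. Centromere positions were not used here, and the middle defined by position need not coincide with the pericentromere on every chromosome.

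All 3 marks were sparse in the chromosome middle. It took 30% of the chromosome length and held 8.25% of the H3K4me3 peaks (exact 95% interval 8.00 to 8.50), 8.54% of the H3K56ac peaks (8.31 to 8.77) and 9.22% of the H3K36me3 regions (8.90 to 9.56). Such intervals, here and below, are exact Clopper-Pearson intervals for shares and Newcombe intervals for differences of shares. They cover counting error alone and are too narrow where neighbouring peaks depend on each other. H3K4me3 reached 14.3 peaks per Mb in the middle and 68.1 in the rest, a 4.77-fold difference. For H3K56ac the densities were 17.4 and 80.1 peaks per Mb, a 4.59-fold difference, and for H3K36me3 they were 10.1 and 42.5 regions per Mb, a 4.22-fold difference.

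The difference in covered sequence was smaller for H3K36me3 than its difference in number. H3K36me3 regions covered 3.70% of the middle and 12.9% of the rest, a 3.49-fold difference. H3K4me3 peaks covered 1.34% of the middle and 5.96% of the rest, and H3K56ac peaks covered 1.47% and 6.52%, which were 4.46-fold and 4.44-fold differences.

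Along the chromosome the marks thinned out gradually towards the middle, with no step at 35% or 65%. In 20 bins of 5% of the chromosome, pooled over the 19 chromosomes, H3K4me3 stood at 123.6 peaks per Mb in the first bin, at 27.3 between 30% and 35%, and at 22.8 just inside the limit. The lowest bin of all 3 marks was that between 50% and 55%, with 9.04 H3K4me3 peaks, 10.8 H3K56ac peaks and 6.88 H3K36me3 regions per Mb. Protein-coding genes of the annotation had their lowest density in the same bin, at 12.0 genes per Mb against 103 in the first bin. Just past the far limit, between 65% and 70%, H3K4me3 stood at 18.4 peaks per Mb, below the 22.8 of the bin between 35% and 40%.

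**Figure D1:**
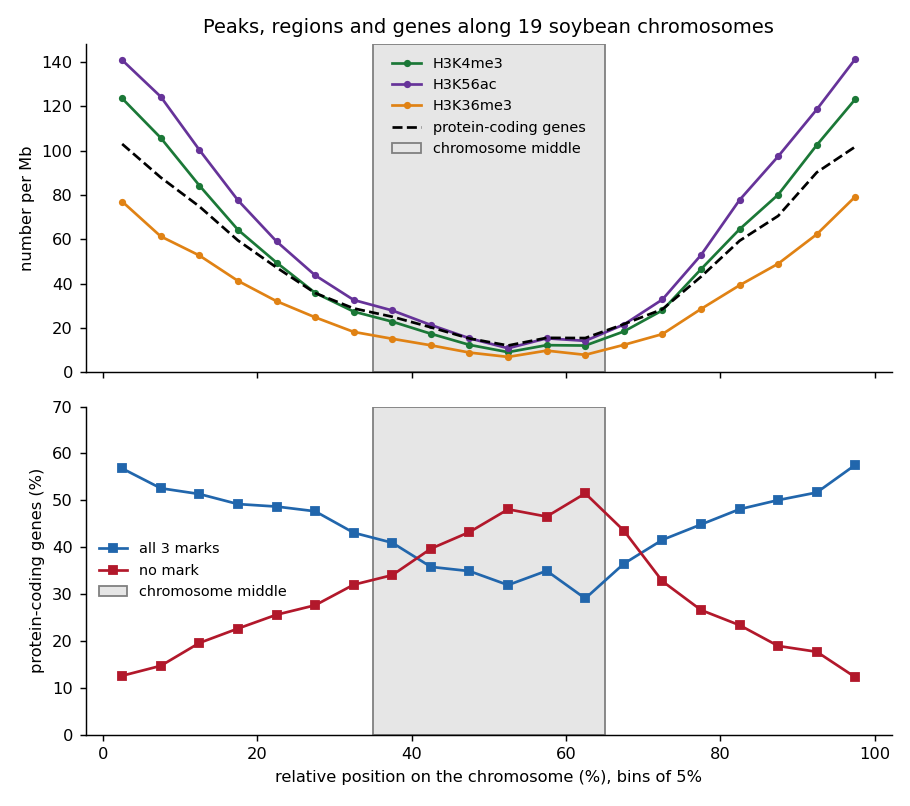
Densities per Mb of the 3 marks and of protein-coding genes in 20 bins along the chromosome (x axis, percent of the extent; pooled over 19 chromosomes), with the share of protein-coding genes carrying all 3 marks or none in the lower panel; grey marks the middle. All 3 marks are lowest between 50% and 55%, where H3K4me3 reaches 9.04 peaks per Mb, and the share of genes with no mark is highest at 51.5% between 60% and 65%.

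The members nearest to the limits show how close the cut runs. Just inside the 35% limit lay the H3K4me3 peak at Gm07:15722003-15723042, of 1040 bp, and just outside it lay the peak at Gm04:17914494-17916190, of 1697 bp. At the 65% limit the last member was the peak at Gm18:37868892-37870085, of 1194 bp, and the first peak beyond was that at Gm14:32390832-32392124, of 1293 bp. Within 1 percentage point of the limits, 327 H3K4me3 peaks inside had a median length of 940 bp and 389 outside had a median of 996 bp. For H3K56ac the medians were 712 bp for 412 peaks inside and 800 bp for 461 outside, and for H3K36me3 both were 2600 bp, over 240 and 254 regions.

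Chromosomes differed in how empty their middle was, and Gm08 and Gm11 stood apart. Gm08 had 1580 members, or 112 per Mb, and Gm11 had 1096, or 92.2 per Mb. The other 17 chromosomes ranged from 23.9 per Mb on Gm04 to 55.0 on Gm07, and the median of all 19 was 36.3. Gm05 had the fewest members, 338, and the smallest share of its own peaks in the middle, 4.91%, while Gm08 had the largest share, 16.0%. On each of the 19 chromosomes, and for each mark, the density in the middle was below that in the rest.

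**Figure D2:**
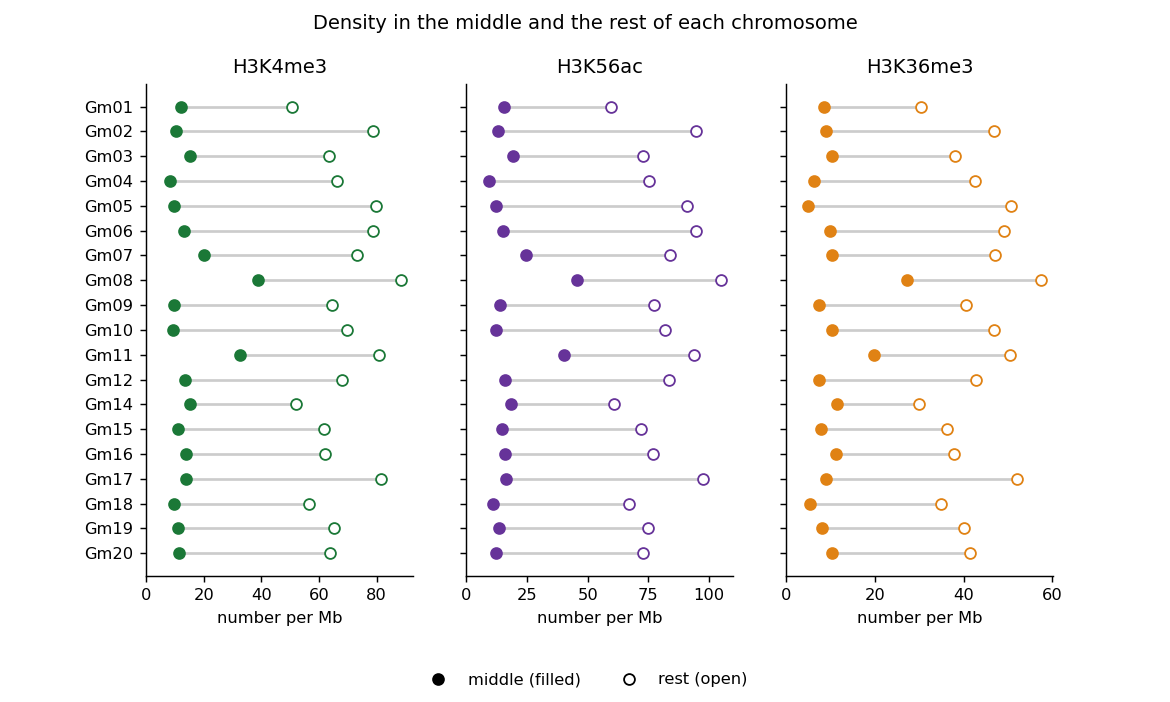
Peaks or regions per Mb in the middle (filled) and in the rest (open) of each of the 19 chromosomes, 1 panel per mark. Each middle lies to the left of the rest of its chromosome, and the middles of Gm08 (38.8 H3K4me3 peaks per Mb) and Gm11 lie to the right of all other middles.

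The spacing of the marks was uneven. From an H3K4me3 peak to its nearer neighbour in the same list, the median gap was 8120.5 bp in the middle and 3160 bp in the rest. For H3K36me3 it was 3000 bp and 2400 bp. The nearer neighbour was more than 50 kb away for 13.6% of H3K4me3 peaks, 9.65% of H3K56ac peaks and 15.5% of H3K36me3 regions of the middle. In the rest these shares were 1.18%, 0.891% and 2.13%. Of 2752 windows of 100 kb in the middle, 1101 (40.01%) had no peak of any list, against 12.9% of 6396 windows in the rest. Windows of 1000 kb were rarely empty in either, 1 of 274 (0.365%) in the middle and 4 of 631 (0.634%) in the rest.

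The longest stretch with no peak of any list in a chromosome middle was 2188 kb long, at Gm09:23429916-25618196. It held 5 annotated genes, of which 2 were protein-coding. Over the 19 chromosomes the longest such stretch within the middle ran from 605 kb on Gm08 to the 2188 kb of Gm09, with a median of 862 kb. These 19 stretches together held 154 annotated genes, 73 of them protein-coding, 33 pseudogenes and 11 genes of long non-coding RNA (lncRNA). Stretches were assigned by their midpoint, so some run past a limit. On 8 of the 19 chromosomes the longest peak-free stretch of the whole chromosome had its midpoint in the middle, and on the other 11 it did not. Some of these 11 midpoints lay before the middle, from 22.5% of the length on Gm19 to 31.8% on Gm20. The others lay past it, from just beyond the 65% limit on Gm06 to 86.9% on Gm15.

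Peaks of the middle were slightly longer than the remaining peaks. The median H3K4me3 peak measured 935 bp in the middle (interval of the median 916 to 955) and 853 bp in the rest (845 to 861). H3K56ac peaks measured 771 bp (749 to 794) and 725 bp (718 to 732), and H3K36me3 regions 2600 bp (2600 to 2800) and 2400 bp (2400 to 2400). H3K36me3 lengths came in steps of 200 bp, so these medians differ by the smallest step possible and the interval in the rest has no width. The lower and upper quartiles in the middle were 511.5 and 1260 bp for H3K4me3, 385 and 1126.75 bp for H3K56ac, and 1600 and 4600 bp for H3K36me3, so the difference between middle and rest was small beside the spread among members. The middle was the longer for H3K4me3 on 18 of the 19 chromosomes, the exception being Gm07 with a difference of -147.5 bp, and for H3K56ac on 15. For H3K36me3 it was longer on 15, equal on 2 and shorter on 2. Just outside the limits, between 30% and 35% and between 65% and 70%, medians of the narrow marks were above those of the middle. They were 938 and 959 bp for H3K4me3 and 801 and 807.5 bp for H3K56ac. For H3K36me3 the medians there were 2400 and 2800 bp. Among the longer 50% of H3K56ac peaks the medians were 1105.5 bp in the middle and 1106 bp in the rest, and among the longer 50% of H3K4me3 peaks the difference came to 10.5 bp.

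In H3K36me3 the difference lay in the long regions. The 95th percentile was 10400 bp in the middle and 7400 bp in the rest, while the 5th percentile was 600 bp in both. Of the H3K36me3 regions of 4000 bp or more, the longest of 4 length classes of about equal size, 11.7% lay in the middle, and of those of 1400 bp or less 8.56% did. The classes between had 7.99% and 8.72% in the middle, so the share did not rise steadily. For H3K4me3 the share in the middle rose over the 4 classes, from 6.83% of the shortest over 8.09% and 8.77% to 9.29% of the longest.

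The longest members lay on genes. The longest H3K4me3 peak, of 4195 bp at Gm08:21745906-21750100, overlapped the protein-coding gene LOC100814046, and 88.1% of it lay under H3K36me3. The second, of 3949 bp at Gm09:30966364-30970312, lay on the lncRNA gene LOC106794583 and shared 3131 bp with an H3K56ac peak. The longest H3K56ac peak, of 6455 bp at Gm15:22335499-22341953, reached over the protein-coding gene LOC100527056 and the pseudogene LOC102668318 and touched 2 H3K4me3 peaks and 2 H3K36me3 regions. All 5 of the longest H3K4me3 peaks and all 5 of the longest H3K56ac peaks overlapped the other narrow mark.

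The 5 longest H3K36me3 regions each lay on 1 protein-coding gene. The longest, of 35400 bp at Gm06:22416601-22452000 on LOC100791683, touched 2 H3K4me3 and 2 H3K56ac peaks, which took up 453 bp and 575 bp of it. The next, of 29800 bp at Gm08:19497601-19527400 on LOC100804594, touched no peak of either narrow mark, and neither did that of 26400 bp at Gm15:34348401-34374800 on LOC100812785. The regions of 28200 bp at Gm19:19156801-19185000 on LOC100799377 and of 26400 bp at Gm15:33811601-33838000 on LOC100803169 each carried 1 peak of both narrow marks.

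Close to the 50% point single genes with marks were found as well. The H3K4me3 peak nearest to it, of 1207 bp at Gm04:25592025-25593231 on LOC100814991, overlapped neither other mark. The next, of 1938 bp at Gm03:23473536-23475473 on LOC100783826, shared 1592 bp with H3K56ac and 1600 bp with H3K36me3. Among the 5 nearest H3K4me3 peaks, 4 overlapped H3K56ac and 3 overlapped H3K36me3. Of the 5 nearest H3K36me3 regions, 4 carried both narrow marks, and the fifth, of 12400 bp at Gm14:24932001-24944400 on LOC100809022, carried neither.

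Where H3K4me3 was called in the middle, H3K56ac lay with it as often as elsewhere or slightly more often. Of the middle H3K4me3 peaks 84.8% (83.6 to 85.9) overlapped an H3K56ac peak by at least 1 bp, against 82.0% in the rest, where the share over all 19 chromosomes was 82.3%. The difference was 2.76 percentage points (1.54 to 3.90), and the middle was the higher on 15 of the 19 chromosomes. In the bins just outside the limits, from 30% to 35% and from 65% to 70%, the share was 85.4% and 85.6%. Peak length moved with this result: with the rest weighted to the length makeup of the middle the difference was 1.11 points. In the other direction 69.5% of the middle H3K56ac peaks overlapped H3K4me3, against 70.1% in the rest and 70.1% over all, a difference of -0.56 points (-1.94 to 0.787). It was above 0 on 10 chromosomes and below 0 on 9, and it was above 0 with other limits of the middle.

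H3K36me3 accompanied the narrow marks less often in the middle. It overlapped 52.8% of the middle H3K4me3 peaks (51.2 to 54.3) and 56.7% of the others, against 56.4% over all. For H3K56ac the shares were 44.2% (42.8 to 45.6) and 49.1%, with 48.7% over all. The middle was the lower on 13 chromosomes for H3K4me3 and on 16 for H3K56ac. H3K4me3 peaks with H3K56ac but without H3K36me3 made up 34.1% of the middle peaks and 28.8% of the rest. The gap was widest among H3K4me3 peaks of 424 to 860 bp, of which 30.1% in the middle and 42.7% in the rest overlapped H3K36me3. Among peaks of 1215 bp or more the shares were 80.9% and 81.7%.

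Taken over all lengths, peaks without any partner were found at similar shares in both parts for the narrow marks. H3K4me3 lay alone in 13.1% of the middle peaks and 14.5% of the rest, with 14.4% over all. H3K56ac lay alone in 28.1% and 26.6%, with 26.8% over all, and these lone peaks were short, with medians of 358.5 bp in the middle and 362 bp in the rest. For H3K56ac the order depended on length. Among peaks of 354 bp or less 60.9% lay alone in the middle and 51.5% in the rest, and among those of 355 to 729 bp 41.5% and 36.2%. From 730 to 1106 bp the shares were 9.03% and 11.5%, and from 1107 bp they were 6.49% and 6.86%.

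Length followed the partners of a peak in the middle as elsewhere. Middle H3K4me3 peaks overlapping both other marks had a median of 1169.5 bp (1154 to 1189), those with H3K56ac only 669 bp (637 to 704) and those alone 439 bp (384 to 499). Within each of these 3 classes they were longer than in the rest, where the medians were 1103, 590 and 377 bp. Middle H3K56ac peaks with H3K4me3 only measured 761 bp (739 to 799), against 686 bp.

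**Figure D3:**
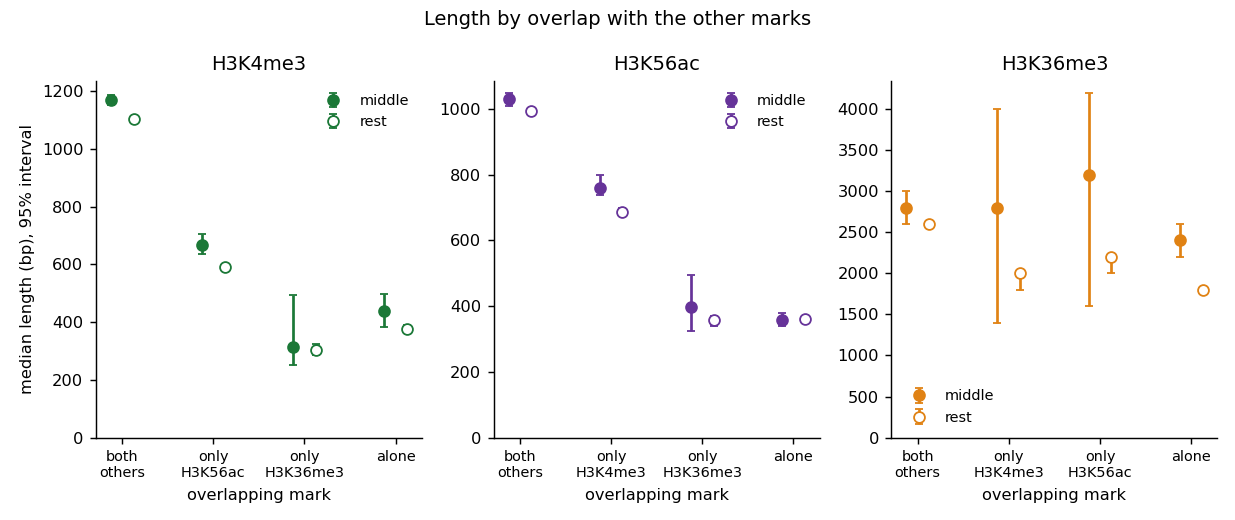
Median length in bp (y axis, bars give the 95% interval of the median) by which other marks a peak or region overlaps, in the middle (filled) and the rest (open), 1 panel per mark. Middle H3K4me3 peaks with both other marks stand at 1169.5 bp against 1103 bp in the rest, and lone H3K36me3 regions at 2400 bp against 1800 bp; lone H3K56ac peaks nearly coincide, at 358.5 and 362 bp.

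The largest difference in co-occurrence was that of H3K36me3 regions. Both narrow marks were present on 1866 of the 2768 middle regions, or 67.4% (65.6 to 69.2), against 76.0% in the rest and 75.2% over all. The difference was -8.62 points (-10.5 to -6.83), and the middle was the lower on 17 of the 19 chromosomes, from -22.8 points on Gm10 to 0.941 points on Gm11. It was found in each of these 4 classes of region length, from 73.6% against 78.0% in regions of 1600 to 2400 bp to 68.3% against 82.2% in regions of 4000 bp or more. Regions with neither narrow mark made up 845 of the middle regions, or 30.5% (28.8 to 32.3), against 20.8% of the rest and 21.7% over all.

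**Figure D4:**
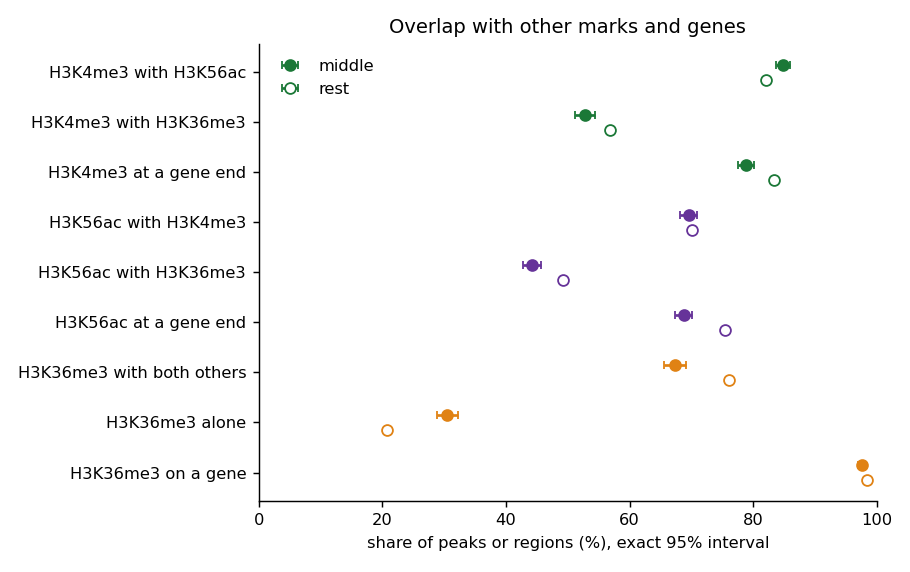
Shares of peaks and regions (percent) that overlap other marks or lie at genes, in the middle and in the rest, with exact 95% intervals. Among the shares plotted the widest gaps are those of H3K36me3 regions, with both narrow marks on 67.4% in the middle and 76.0% in the rest and neither on 30.5% and 20.8%, while H3K56ac with H3K4me3 is 69.5% and 70.1%.

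These lone H3K36me3 regions of the middle lay inside long genes. Of the 845 regions 800 overlapped a protein-coding gene, and the median length of that gene was 21402 bp, against 9516 bp for the 5427 such regions of the rest. These medians are taken over regions, so a gene with several such regions was counted several times. Genes longer than 10 kb held 80.1% of them in the middle and 47.1% in the rest. Of the 800, 96.9% shared their gene with another H3K36me3 region, and in 95.9% the gene had H3K4me3 or H3K56ac at an end, so that most were further pieces of H3K36me3 on genes that carried a narrow mark elsewhere. The corresponding shares in the rest were 96.7% and 96.9%. The lone regions themselves had a median length of 2400 bp in the middle and 1800 bp in the rest. Of the middle regions that touched H3K4me3, 8.31% touched 2 or more peaks of it, against 15.3% in the rest.

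Peaks in the middle lay at the ends of annotated genes less often. The annotation was a RefSeq gene table of the assembly Glycine_max_v4.0, which gives no strand, so both ends of a gene were treated alike. A window reaching 1 kb to each side of such an end was touched by 78.8% of the middle H3K4me3 peaks (77.5 to 80.1) and 83.4% of the others, with 83.0% over all. For H3K56ac the shares were 68.7% (67.4 to 70.04) and 75.4%, with 74.8% over all. The middle was the lower on 17 of the 19 chromosomes for H3K4me3 and on all 19 for H3K56ac. With windows of 500 bp the differences were smaller, at -2.11 points for H3K4me3 and -3.78 for H3K56ac, against -4.55 and -6.63 with 1 kb. H3K36me3 regions touched a 1 kb window at a gene end in 71.2% of cases in the middle and 83.1% in the rest, with 82.0% over all, a difference of -11.9 points (-13.6 to -10.1). They overlapped a gene in 97.7% in the middle (97.0 to 98.2) and 98.4% in the rest, with 98.3% over all, and this order turned when at least 50% of the region had to lie on genes, to 96.5% and 96.3%.

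Peaks away from any gene were the counterpart. No annotated gene lay within 1 kb of 537 middle H3K4me3 peaks, or 13.7% (12.6 to 14.8), against 8.18% in the rest. For H3K56ac there were 1059, or 22.1% (20.9 to 23.3), against 15.8%, and for H3K36me3 55, or 1.99%, against 1.14%. Peaks more than 10 kb from a gene made up 4.56% of the middle H3K4me3 peaks and 0.960% of the rest, and 6.53% and 1.52% of H3K56ac. The spacing of genes differed in the same direction, since the middle had fewer of them per Mb. Intergenic H3K4me3 peaks of the middle were shorter than those on genes, with medians of 637 bp and 1004 bp.

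Some of the peaks farthest from a gene, which were picked out after their values were seen, carried more than 1 mark. The H3K4me3 peak of 864 bp at Gm11:22372934-22373797 lay 108816 bp from the nearest annotated gene and entirely inside an H3K56ac peak of 1797 bp. The farthest H3K36me3 region, of 800 bp at Gm01:25810201-25811000, lay 39194 bp from a gene and was covered by H3K4me3 over 800 bp and by H3K56ac over 797 bp. Both other regions among the 3 farthest of H3K36me3, on Gm14 and Gm18, also carried both narrow marks. The farthest H3K56ac peak, of 489 bp at Gm08:29930000-29930488, was 114296 bp from a gene and lay alone.

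A larger share of the middle peaks lay on genes of lncRNA, transcripts that encode no protein. It was 5.22% for H3K4me3, 5.37% for H3K56ac and 5.56% for H3K36me3 in the middle, against 2.70%, 2.87% and 2.44% in the rest. Such genes made up 8.44% of all annotated genes of the middle and 5.27% of those of the rest. On pseudogenes the shares of H3K4me3 peaks were 3.95% and 4.01%, although pseudogenes made up 11.2% of the middle genes and 7.30% of the others.

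Counted by gene, the middle held 4733 of the 43740 protein-coding genes on the 19 chromosomes, or 10.8%. They stood at 17.2 per Mb against 60.9 in the rest, a 3.53-fold difference that was smaller than the difference in number of any of the 3 marks. The number of H3K4me3 peaks for each protein-coding gene was 0.829 in the middle and 1.12 in the rest. It was 1.01 and 1.32 for H3K56ac, and 0.585 and 0.698 for H3K36me3.

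A gene was counted as carrying H3K4me3 or H3K56ac when a peak touched the 1 kb window around an end, and H3K36me3 when a region overlapped it by 1 bp. On this count 53.2% of the middle protein-coding genes carried H3K4me3 (51.8 to 54.7), against 75.2% in the rest and 72.8% over all. H3K56ac was at 51.3% (49.9 to 52.8), against 71.4% and 69.2% over all. H3K36me3 was at 36.7% (35.3 to 38.0), against 52.7% and 51.0% over all. All 3 marks were found at 1673 middle genes, or 35.3% (34.0 to 36.7), against 50.8% in the rest and 49.1% over all, a difference of -15.5 points (-16.9 to -14.0). With the longer 50% of each list alone it was -4.92 points. No mark was found at 2017 middle genes, or 42.6% (41.2 to 44.0), against 20.1% in the rest and 22.5% over all. All these shares are taken over all protein-coding genes, so a larger share with no mark leaves less for the marked classes together. Shares among marked genes alone are not given here. A gene with no mark is a gene without a called narrow peak in the end windows and without a called H3K36me3 region on it, whatever its signal. It may still carry a narrow peak farther inside the gene.

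H3K4me3 with H3K56ac and no H3K36me3 was found at 590 genes, or 12.5%, against 16.6% in the rest. H3K4me3 alone was at 232 genes (4.90% against 6.99%). H3K56ac alone was at 159 genes, or 3.36% (2.86 to 3.91), an interval that holds the 3.60% of the rest. H3K36me3 with neither narrow mark at an end was at 31 genes, or 0.655% (0.445 to 0.928), which likewise holds the 0.777% of the rest.

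The lower share of fully marked genes was found on all 19 chromosomes. It ran from 27.5% of the middle genes on Gm05 to 49.8% on Gm08, whose rest had 55.6%, the highest of the 19. The difference between middle and rest was widest on Gm05, at -27.1 points, and narrowest on Gm08, at -5.79 points. In the bins along the chromosome the share was 56.8% and 57.6% at the outermost ends and lowest, at 29.1%, between 60% and 65%. The share of genes with no mark went from 12.6% and 12.3% at the ends to 51.5% in that bin.

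Gene length differed between the parts and moved with the marks. The middle had more of both extremes: 15.0% of its genes were in the longest length decile and 17.6% in the shortest, against 9.40% and 9.08% of the rest. Its median gene measured 3066 bp and that of the rest 3380 bp. Within each of the 10 deciles the middle had fewer genes with all 3 marks, from 3.24% against 11.5% in the shortest decile, over 40.3% against 53.8% in the fifth, to 64.8% against 74.2% in the longest. No mark was found at 82.9% of the shortest middle genes against 54.4%, and at 23.3% of the longest against 10.4%. With the rest weighted to the length deciles of the middle, the difference in genes with all 3 marks was -11.9 points.

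**Figure D5:**
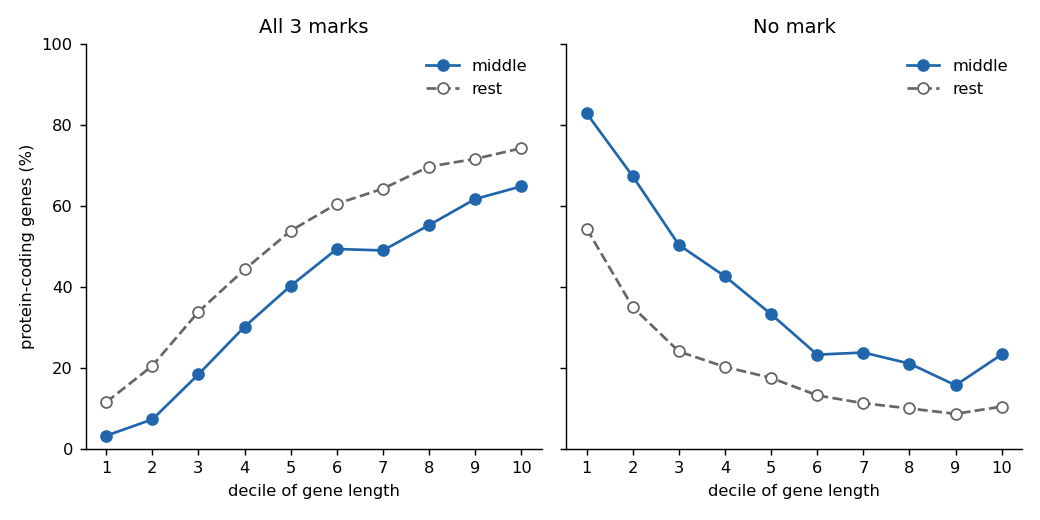
Share of protein-coding genes (percent) with all 3 marks (left) and with no mark (right) by decile of gene length, in the middle (filled) and the rest (open). The middle lies below the rest on the left and above it on the right in all 10 deciles, at 3.24% against 11.5% in the shortest and 64.8% against 74.2% in the longest for all 3 marks.

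Among genes that carried all 3 marks, H3K36me3 covered a similar share of the gene in both parts, while the genes of the middle were longer. H3K36me3 covered a median 73.0% of the gene in the middle (quartiles 53.7% and 86.2%) and 73.2% in the rest (52.8% and 88.7%). Their median gene length was 5158 bp in the middle and 4347 bp in the rest, and the median length under H3K36me3 was 3363 bp and 2794 bp. H3K4me3 spanned a median 1246 bp of the gene and its flanks in the middle and 1225 bp in the rest, and H3K56ac spanned 1122 bp and 1155 bp. Among these genes 24.4% in the middle and 21.7% in the rest had 2 or more H3K36me3 regions, and the mean number was 1.48 and 1.30.

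Distance to the next gene also moved with the marks. No other gene lay within 10 kb of 1719 middle protein-coding genes, or 36.3%, against 9.18% in the rest. Among these isolated genes all 3 marks were found at 32.4% (30.2 to 34.7) in the middle and 32.6% (31.1 to 34.2) in the rest. No mark was found at 46.8% (44.4 to 49.2) of them in the middle and 36.9% (35.3 to 38.5) in the rest, and H3K4me3 at 49.97% (47.6 to 52.4) and 59.97% (58.3 to 61.6). With no other gene within 50000 bp the unmarked share was 44.7% of 253 middle genes and 48.1% of 156 others. That is the other order, but it rests on few genes and is given without an interval. Where another gene lay within 2000 bp, all 3 marks were at 40.1% of 1390 middle genes and 58.9% of 18716 others. Between 2000 and 10000 bp the shares were 34.4% and 45.7%. A near gene brings its own peaks into the windows counted, and what part of the difference comes from that was not tested.

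As in the rest, the narrow marks of middle genes lay at a single end. Of 2106 middle genes of at least 2000 bp with no other gene within 2000 bp, 61.6% (59.5 to 63.7) had H3K4me3 within 500 bp of 1 end and 4.46% (3.62 to 5.43) of both. In the rest the shares were 68.4% and 6.90%. H3K56ac was at 1 end in 56.5% and at both in 8.21% of the middle genes, against 58.6% and 12.6% in the rest.

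Few genes of the middle have a symbol of their own: 185 of its protein-coding genes do, of which 69 (37.3%) carried all 3 marks and 43 carried none, against 44.3% with all 3 in the rest. Lengths under H3K4me3 and H3K56ac of a named gene include 1 kb either side of it, and H3K36me3 is given as the share of the gene. Among the 10 genes with all 3 marks and the largest covered length were 2 of chloroplast pigments. ZEP encodes zeaxanthin epoxidase of the xanthophyll cycle and lay on Gm17, with 2730 bp under H3K4me3, 2081 bp under H3K56ac and 98.0% of its 12252 bp under H3K36me3. HEMG encodes protoporphyrinogen oxidase of chlorophyll and haem synthesis and lay on Gm19, with 917 bp, 937 bp and 74.6%.

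Others of the 10 act in defence, chromatin and gene regulation. ICS1, for isochorismate synthase of salicylic acid synthesis, had 1345 bp under H3K4me3, 1951 bp under H3K56ac and 85.3% of its 14688 bp under H3K36me3. VAD1, known in Arabidopsis as a regulator of cell death around the veins, had 74.7% under H3K36me3. LHP1-2, named after the Arabidopsis chromodomain protein that binds trimethylated lysine 27 of histone H3, had 89.5%. The transcription factor genes BZIP93 and WRKY44 had 69.0% and 72.7%. SDP6, in Arabidopsis a mitochondrial glycerol-3-phosphate dehydrogenase, had 92.1%. The largest covered length of all was that of CYP56, a gene of 28111 bp with 67.9% under H3K36me3, and SOYCTA had 56.9%.

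The longest symbol genes of the middle with no mark by these rules included regulators and transporters. NAC172, a transcription factor gene annotated over 32835 bp, had no H3K4me3 or H3K36me3 but 798 bp of H3K56ac away from its ends. PHYE2, for a phytochrome photoreceptor, had 157 bp of H3K56ac inside its 11658 bp. FRD3b, a transporter gene of the MATE family whose Arabidopsis namesake exports citrate, the transcription factor gene TGA03 and TPS8 had 0 bp of each mark, over gene lengths of 9984, 8714 and 8141 bp.

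Some middle genes carried H3K4me3 with neither other mark. The largest was 1518 bp at NIP6-2, of the aquaporin family of membrane channels, followed by 1483 bp at the transcription factor gene LBD22 of 831 bp. CYP74A1, for allene oxide synthase of jasmonate synthesis, had 1396 bp. UR9, for uricase (nodulin-35), which is abundant in root nodules where it serves ureide synthesis, had 1102 bp in these leaves. SC-03 had 775 bp.

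H3K56ac without H3K4me3 at an end or H3K36me3 was led by ALDH18B1, of the aldehyde dehydrogenase family, with 1731 bp. That gene also had 846 bp of H3K4me3 on its 13140 bp, but away from its ends. IQD39, of a calmodulin-binding family, had 1005 bp of H3K56ac and likewise 296 bp of H3K4me3 away from its ends. The glyoxalase gene GLYI-9 had 569 bp, the transcription factor gene TGA01 517 bp and the leucine transfer RNA gene TRNAL-AAG 386 bp. Of 38 symbols of well-studied soybean genes, 28 were matched and 1 lay in the middle. It was E1, a legume repressor of flowering, which had 158 bp of H3K56ac and no other mark.

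Families of symbol genes were represented by few members in the middle. Of 791 genes in 18 families 64 (8.09%) lay there. All 3 marks were found at 22 of these 64 (34.4%) and at 292 of 727 (40.2%) in the rest. No mark was found at 8 of the 64 and at 141 of the 727, a smaller share in the middle than in the rest. Over all protein-coding genes the order was the opposite, with no mark at 42.6% in the middle and 20.1% in the rest. In the numbered CYP series 7 of 9 middle genes had all 3 marks, against 48 of 70 in the rest. That series also takes in cytochrome P450 genes such as CYP72A67 and CYP74A1. Among bZIP transcription factors it was 5 of 8 against 41 of 60, and both middle histone deacetylase genes, HDA12 and HDT2, had all 3, as did 21 of 22 in the rest.

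All 5 middle WRKY genes had H3K4me3, 4 had H3K56ac, and WRKY4 and WRKY44 had all 3 marks, which were found at 15 of 53 WRKY genes in the rest. None of the 6 genes of glutathione S-transferases, which conjugate glutathione to toxins, had H3K36me3. All 3 marks were thus at 0 of these 6, against 11 of 30 in the rest. LBD genes, which encode plant-specific transcription factors with a known role in lateral organs, had all 3 at 0 of 5 in the middle and 1 of 28 in the rest. The aquaporin genes NIP6-2, PIP1-1, PIP2-3 and TIP2-4 all had H3K4me3 and none had H3K36me3. All 3 marks were thus at 0 of these 4, against 8 of 36 in the rest. Of the 4 middle SWEET sugar transporter genes SWEET42 had all 3 marks, SWEET41 had H3K56ac, and SWEET51 and SWEET52 had none, against 1 with all 3 and 20 with none of 34 in the rest. With so few members in the middle, these family counts were not tested against those of the rest.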

How the data were processed

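ChIP-seq peak lists of 3 soybean leaf libraries were used, 1 per mark. The deposited values are positions, with chromosome, start and end in bp and no score or read count, per the files themselves, so depth is unknown. Bowtie2, MACS2, SICER, Picard and Trimmomatic appear in the submitters' processing notes without versions or roles, together with a maize build. For the soybean build and the peak thresholds nothing was given in the sources used here. All 32245 deposited H3K36me3 regions lay on a grid of 200 bp once their ends were moved by 1 bp. Coordinates are printed counted from 1.

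Genes came from the RefSeq table of Glycine_max_v4.0. Because the build of the lists is not named, their register was checked: in 73 of 73 windows of 2 Mb in the middle with at least 20 H3K4me3 peaks, more midpoints came to lie 500 bp or less from an end of a protein-coding gene than after shifts of 20 kb and 100 kb (34.3% against 6.47% of middle peaks). In the rest it was so in 297 of 297 windows (39.4% against 16.7%). Windows with fewer H3K4me3 peaks were not among those counted. Small differences between builds would pass this check, and gene coordinates are not printed.

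Overlaps counted from 1 bp. Shares have exact 95% intervals and medians have order-statistic intervals, computed with Python 3.11.15, numpy 2.4.6, pandas 2.3.3 and scipy 1.17.1; the code was tested on simulated data. Chromosomes are not replicates. The members, lists and families were chosen with earlier results of these data known. Genes were named by a rule: among middle genes with a symbol, the 10 with all 3 marks and the largest covered length, the 5 longest protein-coding ones with no mark, the 5 with the longest H3K4me3 alone and the 5 with the longest H3K56ac alone, plus the listed symbols and 18 families. The 5 longest members of each list, and the 5 H3K4me3 peaks and H3K36me3 regions nearest to 50%, were also named. Alternatives varied the limits, extent, weighting of chromosomes, overlap, gene window and length. Gm13, scaffolds, the inputs and maize were left out. No sequence is printed, since no genome or sequence table was used here. In the design text of the series the soybean marks include H3K4me1, where the sample's own labels give H3K4me3; the latter were followed.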

Additional observations from a re-analysis of the deposited data

How the results depend on the processing

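Over 13 results 92 alternatives were computed, of which 63 kept the direction and stayed within the counting interval of the reported value. The share of each list in the middle moved with the limits by construction, since the middle then took another part of the chromosome length. Between 40% and 60%, or 20% of the length, it was 4.90% (H3K4me3), 5.11% (H3K56ac) and 5.73% (H3K36me3). Between 30% and 70%, or 40% of the length, it was 12.6%, 12.9% and 13.9%. In the longer 50% of each list it was 9.02%, 9.01% and 10.1%, and without Gm08 and Gm11, chosen after seeing the data, 7.21%, 7.50% and 8.24%. All remaining values are middle minus rest. With limits of 40% and 60% the difference was 4.26 points for H3K4me3 with H3K56ac, 0.0692 for H3K56ac with H3K4me3 (reversed) and -11.0 for H3K36me3 with both. With limits of 30% and 70%, H3K56ac with H3K4me3 gave 0.426 points (reversed). In the longer 50% of each list the medians differed by 10.5 bp (H3K4me3) and -0.5 bp (H3K56ac, reversed), and the shares by 1.86 points for H3K56ac with H3K4me3 (reversed), -4.11 for H3K36me3 with both and -4.92 for genes with all 3 marks. Weighting the rest to the lengths of the middle gave 1.11 points for H3K4me3 with H3K56ac and -11.9 for genes with all 3 marks. Gene windows of 500 bp gave -2.11 points for H3K4me3 and -3.78 for H3K56ac at gene ends, and asking for 50% of an H3K36me3 region on genes gave 0.164 (reversed). Without Gm08 and Gm11 the differences were -6.18 points for H3K4me3 at gene ends, -10.6 for H3K36me3 with both and -17.3 for genes with all 3 marks. The causes of these shifts were not tested, apart from the other length of the middle and the fewer chromosomes or peaks that an alternative used by its construction. No paired analysis was possible because each mark has 1 library and no result comes from a test. The lists hold no read counts, so depth is unknown, and a missing peak is a missing call. Leaving out a replicate was not possible with 1 library per mark. The planned composition of promoters was not analysed here.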

Other observations

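Genes of lncRNA, pseudogenes and genes of small nucleolar RNAs were a larger part of the annotated genes in the chromosome middle than in the rest, and transfer RNA genes were a smaller part. The middle held 19.1% of the 3097 lncRNA genes, 18.5% of the 4254 pseudogenes and 5.96% of the 654 transfer RNA genes of the 19 chromosomes, against 10.8% of the protein-coding genes. Of the 592 middle lncRNA genes, 20.9% (exact 95% interval 17.7 to 24.4) had all 3 marks and 56.9% (52.8 to 61.0) had none, against 21.3% and 41.8% in the rest. Of the 785 middle pseudogenes, 5.48% (3.99 to 7.31) had all 3 marks and 79.4% (76.4 to 82.1) had none, against 17.6% and 46.9%. Among 87 middle genes of microRNAs, 14.9% (8.20 to 24.2) had H3K4me3 and 70.1% (59.4 to 79.5) had no mark, against 36.2% and 51.6% of 533 in the rest.

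Genes of small nucleolar RNAs (snoRNAs), which guide the modification of ribosomal RNA, were concentrated in the middle. There were 721 of 1607, or 44.9%, spread over all 19 chromosomes with 15 on Gm11 to 53 on Gm18. No mark was found at 700 of the 721, or 97.1% (95.6 to 98.2), against 66.8% (63.6 to 69.9) of the 886 in the rest. The 21 marked ones lay on 9 chromosomes, with at most 4 on any of them.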
